A study of Mus musculus with 6 samples.

Results

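Sebaceous gland lipid genes are the enzymes that make the waxes, triglycerides and unusual fatty acids of sebum, together with a receptor and a duct keratin of the same gland. The group was taken as the rows of the deposited table whose gene symbol is Scd1, Scd3, Awat1, Awat2, Dgat2l6, Elovl3, Far2, Mc5r, Krt79 or Mogat1, and all 10 were found, of 57010 genes in the table. RNA was sequenced from skin of 6 mice of WT (wild-type) genotype in a study of diabetic ulcers. On 3 mice a gel with CST was used (cortistatin, to go by the title of the series, a neuropeptide of the somatostatin family), and on 3 mice a gel with Yoda1, a synthetic opener of the mechanosensitive channel Piezo1. The sources used here do not say whether or how these mice were made diabetic, nor their age, the doses or the time of sampling, and no untreated or vehicle skin was analysed here, so each comparison sets CST skin against Yoda1 skin.

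Sebaceous glands are attached to hair follicles. Their cells, the sebocytes, fill with lipid as they mature and burst to release it through a duct lined by keratinocytes. Fatty acids are made, elongated and desaturated, part of them is reduced to fatty alcohols, and acyltransferases join acids to alcohols or glycerol to give wax esters and triglycerides. In the mouse, loss of Scd1 leaves the sebaceous glands shrunken, loss of Elovl3 disturbs the hair coat and its lipids, and loss of Mc5r lowers sebum output.

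The values are FPKM, fragment counts scaled to the length of a gene and the depth of a library. Values of single mice are given in the order of mouse 1, 2 and 3 of a group, which the labels give as separate animals, so that p-values measure the spread between them. The steps between low FPKM values gave a depth of 23791352 to 29620526 reads per library. The labels tag the samples both as skin and as keratinocytes. The keratinocyte gene Krt14 measured 8183, 8394 and 8480 FPKM in CST mice and 5973, 5835 and 14601 FPKM in Yoda1 mice, and transcripts of muscle, fat and macrophages were present too, so the libraries were read as whole skin. The summed FPKM of 26 skeletal muscle genes ran from 11767 to 21791 in CST skin and from 373 to 8852 in Yoda1 skin. CST mouse 1 and Yoda1 mouse 3 stood apart from the others, with 6.72% and 7.61% of their FPKM sum in mitochondrially encoded transcripts against 3.25% to 3.81% in the other 4 libraries.

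Of the 10 sebaceous genes, 9 reached the mean of 1 FPKM that was required for a test, and Mogat1 did not. None of the 9 passed the test between CST and Yoda1 skin (limma on log2(FPKM + 1), Benjamini-Hochberg adjustment over 14588 genes, adjusted p = 0.9999 for each). The same test called 0 of the 14588 genes (0%), with a smallest adjusted p of 0.521 in limma, and limma-voom on reads recovered from the FPKM steps called 0 as well. At an unadjusted p under 0.05 stood 0 of the 9 and 584 of all tested genes (4%), or 585 by limma-voom. In all 10 genes the values of the CST mice overlapped those of the Yoda1 mice, while over all tested genes the groups did not overlap in 6.59%, with CST higher in 4.52% and lower in 2.08%. The log2 change, CST minus Yoda1, was above 0 in 7 of 9 and below 0 in 2, with a median of 0.15, beside 47.2% above 0 and a median of -0.01 over all tested genes. In bulk skin, fewer sebocytes and less RNA per sebocyte cannot be told apart.

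**Figure D1:**
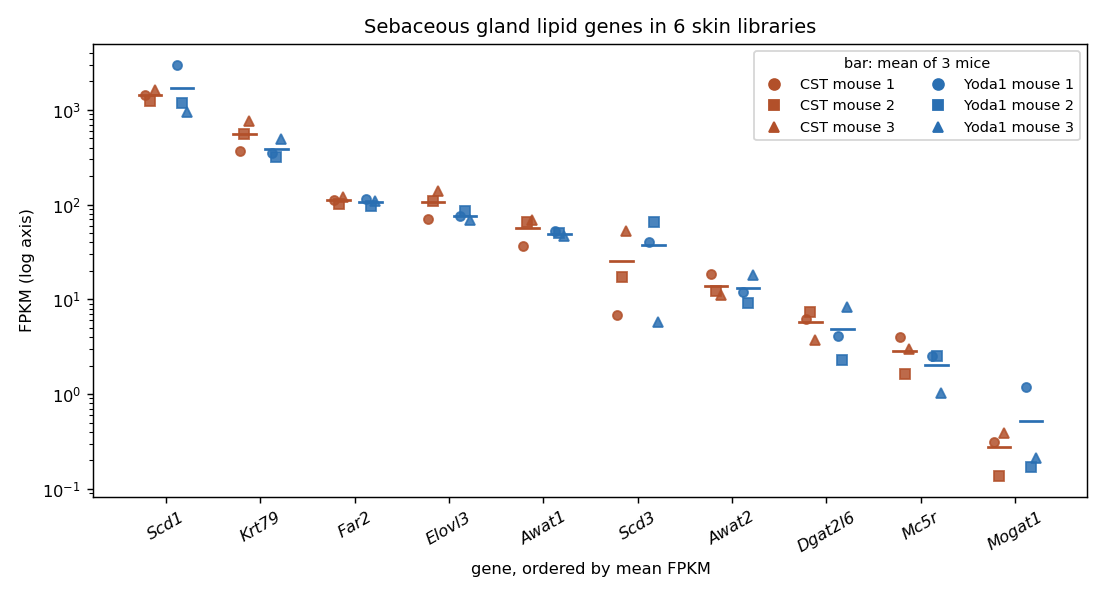
FPKM (log axis) of the 10 genes in each library, CST mice left of Yoda1 mice, with a bar at the mean of the 3 mice of a group. The CST and Yoda1 points overlap for all 10 genes, and Scd3 spreads from 5.78 to 65.8 FPKM while Far2 stays between 95.7 and 122 FPKM.

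The genes spanned a wide range of levels. Averaged over the 6 libraries, Scd1 stood at 1579 FPKM, rank 59 of all genes in the table. It was followed by Krt79 at 475 FPKM, Far2 at 109 FPKM, Elovl3 at 91.7 FPKM and Awat1 at 53.2 FPKM. Lower still were Scd3 at 31.5 FPKM, Awat2 at 13.5 FPKM, Dgat2l6 at 5.33 FPKM, Mc5r at 2.46 FPKM and Mogat1 at 0.400 FPKM. Of the 9 neighbouring pairs in that order, 4 had ranges that did not touch: Scd1 above Krt79, Krt79 above Far2, Elovl3 above Awat1 and Awat2 above Dgat2l6. In the other pairs, among them Far2 with Elovl3 and Scd3 with its neighbours Awat1 and Awat2, the ranges overlapped.

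Levels of different genes depend on the length each was divided by. The lengths behind the FPKM values equal the mean length of a gene's annotated transcripts (within 1 base in 94.5% of 12695 genes with at least 100 reads), which is short where an annotation holds fragments. For Scd1 the length was 1970 bases, against 4892 bases in the union of its exons, and for Krt79 it was 1405 against 4753 bases. Per kilobase of the exon union, Scd1 would average 636 FPKM and Krt79 140.4 FPKM, and Far2, at 45.0 FPKM, would lie below Elovl3 at 80.6 FPKM and Awat1 at 53.2 FPKM. The other ranks kept their order. The FPKM ratio between treatments within a gene does not depend on this length. Changes on log2(FPKM + 1) do depend on it somewhat in genes of low FPKM, through the added 1.

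Stearoyl-CoA desaturases put a double bond into saturated fatty acids. Scd1 (ENSMUSG00000037071, chromosome 19, 44394455 to 44407879, minus strand, GRCm38) measured 1441, 1241 and 1621 FPKM in CST mice and 3015, 1197 and 962 FPKM in Yoda1 mice. The CST mice were close to each other, and the Yoda1 mice held both the highest and the lowest value of the 6. Scd1 averaged 1434 ± 190.4 FPKM in CST skin and 1725 ± 1124 FPKM in Yoda1 skin (SD, n = 3 each), with a log2 change of -0.09 (SE 0.43, 95% interval -1.09 to 0.91). It alone took 0.284%, 0.244% and 0.319% of the reads of CST mice and 0.594%, 0.236% and 0.189% of the reads of Yoda1 mice.

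The high Scd1 value in Yoda1 mouse 1 came with high adipocyte transcripts, and Scd1 is known to be made in fat as well as in sebocytes. Of 12 adipocyte genes, all above the 1 FPKM mean and none at 0 in any library, 11 were highest in Yoda1 mouse 1; the exception was Car3, highest in CST mouse 1. Adipoq, the fat hormone adiponectin, measured 86.2, 54.3 and 92.5 FPKM in the CST mice and 253, 64.8 and 89.8 FPKM in the Yoda1 mice. The summed FPKM of the 12 genes ran from 1225 to 2331 in CST skin and from 1318 to 3685 in Yoda1 skin. Of the 12, 10 had a log2 change below 0 and 2 above, with a median of -0.46, and none passed the test. Fabp4 was the 1 gene of the list whose groups did not overlap, beside 2.08% of all tested genes with CST lower. It measured 174, 199 and 232 FPKM in CST mice and 871, 245 and 288 FPKM in Yoda1 mice. Without Yoda1 mouse 1 the log2 change of Scd1 was 0.41 (SE 0.32, limma adjusted p = 0.9999), in place of -0.09. Omitting CST mouse 2 gave 0.013, and omitting Yoda1 mouse 3 gave -0.41. The part of fat tissue in the Scd1 values was not tested.

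Scd3 (ENSMUSG00000025202, chromosome 19, 44203269 to 44244016, plus strand), a desaturase that in mouse skin is best known from sebocytes, varied most among the 9. It measured 6.80, 17.4 and 52.4 FPKM in CST mice and 40.8, 65.8 and 5.78 FPKM in Yoda1 mice, an 11.4-fold range. Both groups held low and high mice. The lowest values were in CST mouse 1 and Yoda1 mouse 3, the libraries with the high mitochondrial share, whose part in this was not tested. Within groups its SD on the log2 scale was 1.58, wider than in 99.5% of tested genes, while the median tested gene had 0.33. The means were 25.5 ± 23.8 FPKM in CST skin and 37.4 ± 30.1 FPKM in Yoda1 skin (SD, n = 3 each), with a log2 change of -0.43 whose 95% interval ran from -2.61 to 1.74. The direction turned with a single mouse left out, to 0.24 without CST mouse 1 and to 0.23 without Yoda1 mouse 2, while it was -1.15 without CST mouse 3, -1.42 without Yoda1 mouse 3 and -0.11 without Yoda1 mouse 1. Without both libraries of high mitochondrial share the change was -0.75 (SE 0.55). Leaving out that pair, here and below, was a choice made after the data were seen.

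Scd3 did not follow Scd1 from library to library. It amounted to 0.472%, 1.41% and 3.23% of the Scd1 FPKM in the CST mice and to 1.35%, 5.49% and 0.601% in the Yoda1 mice. The transcripts share sequence: of the 100-base windows of the longest Scd3 transcript 2.54% also occur in Scd1, and of those of Scd1 1.82% occur in Scd3. Scd1 had 45075 to 175919 reads per library and Scd3 285 to 3994, so Scd1 reads that fit both genes could be many beside those counted for Scd3. The sources used here do not say how the counting treated such reads, which leaves the Scd3 level uncertain. Of the other family members, Scd2, the desaturase of brain and many other tissues, measured 18.6, 24.6 and 45.9 FPKM in CST skin and 24.9, 26.8 and 20.5 FPKM in Yoda1 skin, and its groups overlapped. Scd4 lay between 0.245 and 0.386 FPKM in all libraries.

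Elovl3 (ENSMUSG00000038754, chromosome 19, 46131897 to 46135694, plus strand) elongates saturated and monounsaturated fatty acids to very long chains in sebaceous glands. It measured 70.9, 109 and 140.3 FPKM in CST mice and 76.2, 84.8 and 69.1 FPKM in Yoda1 mice. CST mice 2 and 3 lay above all Yoda1 mice and CST mouse 1 among them. The means were 107 ± 34.8 FPKM in CST skin and 76.7 ± 7.86 FPKM in Yoda1 skin (SD, n = 3 each), with a log2 change of 0.42 (SE 0.28, 95% interval -0.22 to 1.06). With CST mouse 3 left out the change was 0.20, and without CST mouse 1 it was 0.68, neither past the threshold. Without both CST mouse 1 and Yoda1 mouse 3 it was 0.61 (SE 0.18, limma adjusted p = 0.343).

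All 6 tested elongases, Elovl3 among them, had a log2 change above 0, with a median of 0.32, and none passed the test. Over all tested genes 47.2% were above 0. Elovl4, which builds the ultra-long fatty acids of skin barrier ceramides, measured 935, 848 and 898 FPKM in CST skin and 763, 644 and 727 FPKM in Yoda1 skin. Elovl6, which elongates palmitate to stearate, measured 402, 359 and 423 FPKM in CST skin and 358, 317 and 284 FPKM in Yoda1 skin. In both genes all CST mice lay above all Yoda1 mice, with log2 changes of 0.33 (SE 0.21) and 0.31 (SE 0.21); groups did not overlap with CST higher in 4.52% of all tested genes. The groups overlapped in Elovl1, Elovl5 and Elovl7, with log2 changes of 0.30, 0.16 and 0.39. Elovl2 was at most 0.0330 FPKM in any library.

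Far2 (ENSMUSG00000030303, chromosome 6, 148047259 to 148182758, plus strand) reduces fatty acyl-CoA to the fatty alcohols of wax esters, and it was the steadiest of the group. It measured 111, 101 and 122 FPKM in CST mice and 116, 95.7 and 110.4 FPKM in Yoda1 mice. All 6 values lay within a 1.27-fold range, and the within-group SD of 0.14 on the log2 scale was smaller than in most tested genes (percentile 6.53). The log2 change was 0.05 (SE 0.19), with a 95% interval from -0.39 to 0.50. It turned to -0.012 without CST mouse 3 and to -0.025 without Yoda1 mouse 2. Its paralogue Far1, a peroxisomal reductase that also serves ether lipid synthesis, measured 55.6, 49.5 and 32.8 FPKM in CST skin and 54.2, 39.9 and 69.0 FPKM in Yoda1 skin, with a log2 change of -0.24 (SE 0.29).

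The acyltransferases of the group belong to the DGAT2 family, and 3 of them lie close together on the X chromosome. Awat1 (ENSMUSG00000015665, 100572251 to 100578205, plus strand), a wax synthase, measured 36.3, 66.4 and 68.4 FPKM in CST mice and 52.5, 49.8 and 46.1 FPKM in Yoda1 mice. CST skin held both the lowest value and the 2 highest. The means were 57.0 ± 18.0 FPKM in CST skin and 49.5 ± 3.17 FPKM in Yoda1 skin (SD, n = 3 each), with a log2 change of 0.15 (SE 0.27, 95% interval -0.49 to 0.78). Omitting CST mouse 1 gave 0.44, omitting CST mouse 2 gave 0.013 and omitting CST mouse 3 gave -0.0078. Without CST mouse 1 and Yoda1 mouse 3 the change was 0.39 (SE 0.14, limma adjusted p = 0.365).

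Awat2 (ENSMUSG00000031220, 100402221 to 100442717, minus strand), which makes wax esters and also esterifies retinol, measured 18.4, 12.2 and 11.1 FPKM in CST mice and 12.0, 9.11 and 18.1 FPKM in Yoda1 mice. Its highest values were in CST mouse 1 and Yoda1 mouse 3. Dgat2l6 (ENSMUSG00000067597, 100524838 to 100546144, plus strand), a little-studied relative, measured 6.16, 7.39 and 3.76 FPKM in CST mice and 4.15, 2.27 and 8.24 FPKM in Yoda1 mice. The log2 changes were 0.10 (SE 0.30, 95% interval -0.60 to 0.81) for Awat2 and 0.29 (SE 0.41, 95% interval -0.65 to 1.23) for Dgat2l6. The change of Awat2 turned to -0.10 without CST mouse 1 and to -0.11 without Yoda1 mouse 2, and it reached 0.35 without Yoda1 mouse 3. That of Dgat2l6 turned to -0.067 without Yoda1 mouse 2 and reached 0.68 without Yoda1 mouse 3. Although the 3 genes are neighbours, their order over the libraries differed: in CST mouse 1 Awat1 was at its lowest and Awat2 at its highest. Their transcripts share no window of 25 bases with one another in the pairs compared, so shared reads do not tie these values together.

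Mogat1 (ENSMUSG00000012187, chromosome 1, 78510991 to 78538173, plus strand), which adds an acyl chain to monoacylglycerol, was close to the detection limit. It measured 0.311, 0.136 and 0.388 FPKM in CST mice and 1.18, 0.171 and 0.210 FPKM in Yoda1 mice, from 6, 3 and 9 reads in CST mice and 28, 4 and 4 reads in Yoda1 mice. The exact 95% Poisson interval of the value in Yoda1 mouse 1, 0.786 to 1.71 FPKM, lay above those of all other libraries, of which the highest reached 0.736 FPKM. These intervals cover counting error only. Yoda1 mouse 1 was the library with the high adipocyte transcripts, in which Scd1 was highest too, and their part in the Mogat1 value was not tested. Mogat1 was left out of the main test by its low mean. In the fit without a filter on low values its log2 change was -0.19 (SE 0.25, 95% interval -0.79 to 0.41, limma adjusted p = 0.9999).

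None of the 7 tested acyltransferases passed the test, although all 7 log2 changes were above 0, with a median of 0.19. Over all tested genes 47.2% were above 0. The 7 include Awat1, Awat2 and Dgat2l6, which are also counted among the 9 sebaceous genes. Dgat1, which completes triglycerides in many tissues, measured 119, 141 and 91.8 FPKM in CST skin and 104, 75.8 and 72.1 FPKM in Yoda1 skin, with a log2 change of 0.47 (SE 0.25). Dgat2, the other triglyceride synthase, measured 132, 135 and 197 FPKM in CST skin and 184, 116 and 134 FPKM in Yoda1 skin. Soat1, which makes the cholesterol esters of sebum, had a log2 change of 0.25 (SE 0.22), and Soat2 one of 0.19. Mogat2 was at most 0.221 FPKM and was listed at 0 in 2 Yoda1 libraries.

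**Figure D2:**
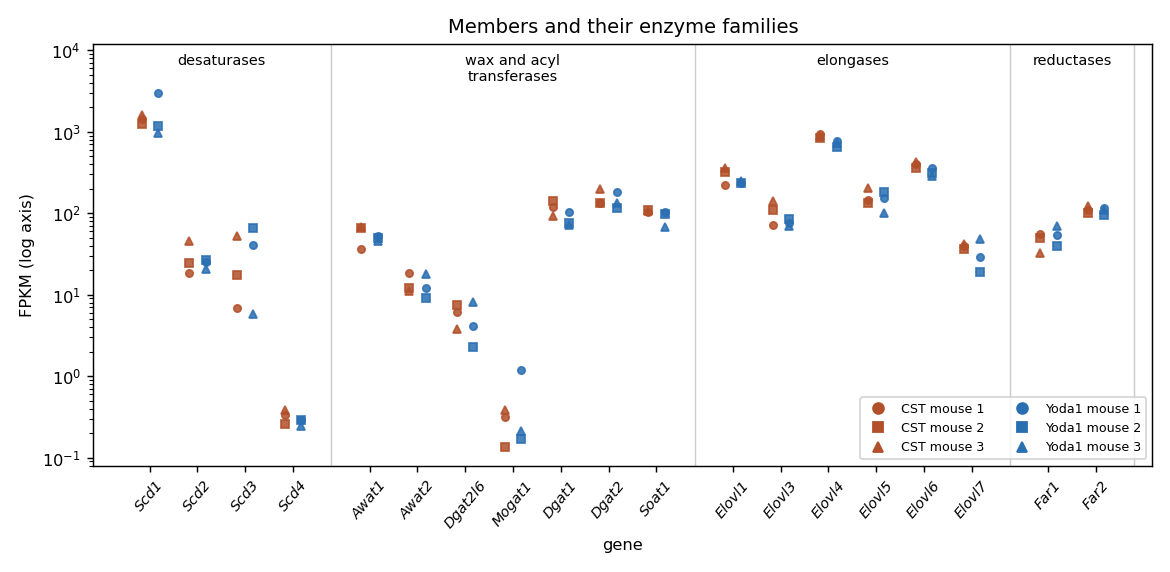
FPKM (log axis) of the desaturases, acyltransferases, elongases and fatty acyl reductases in each library, CST mice left of Yoda1 mice. Elovl4 is the elongase with the most FPKM, between 644 and 935, and Dgat1 and Dgat2 lie above Awat1, Awat2, Dgat2l6 and Mogat1.

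Mc5r (ENSMUSG00000007480, chromosome 18, 68337596 to 68342446, plus strand), the melanocortin receptor of sebaceous and other exocrine glands, measured 4.02, 1.63 and 2.99 FPKM in CST mice and 2.54, 2.53 and 1.02 FPKM in Yoda1 mice. The groups overlapped, with CST mouse 1 highest and Yoda1 mouse 3 lowest. Behind these values stood 97 to 387 reads. The means were 2.88 ± 1.19 FPKM in CST skin and 2.03 ± 0.875 FPKM in Yoda1 skin (SD, n = 3 each), with a log2 change of 0.35 (SE 0.34, 95% interval -0.43 to 1.13). Leaving out 1 mouse at a time gave values from 0.09, with Yoda1 mouse 3 omitted, to 0.61, with CST mouse 2 omitted. The change was -0.12 (SE 0.27) once CST mouse 1 and Yoda1 mouse 3 were both left out.

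Among the melanocortin receptors, Mc5r had the highest mean FPKM. Mc1r, the pigment cell receptor, measured 0.0456, 0.139 and 0.795 FPKM in CST skin and 0.0464, 0.122 and 0.0116 FPKM in Yoda1 skin. Mc2r, the ACTH receptor of the adrenal gland and fat, measured 0.229, 0.332 and 0.718 FPKM in CST skin and 1.78, 0.335 and 1.19 FPKM in Yoda1 skin. Mc3r and Mc4r did not exceed 0.158 FPKM. The hormone precursor gene Pomc, named after its values were seen, did not exceed 0.545 FPKM, and the receptor partner gene Mrap measured 5.88, 5.50 and 8.45 FPKM in CST skin and 28.3, 3.61 and 6.84 FPKM in Yoda1 skin, highest in the mouse with the high adipocyte transcripts. Of the melanocortin list 3 genes (Mc5r, Agrp and Mrap) were tested, and none passed.

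Krt79 (ENSMUSG00000061397, chromosome 15, 101929332 to 101940324, minus strand) is a keratin of the upper hair follicle and the sebaceous duct. It measured 365, 555 and 756 FPKM in CST mice and 355, 322 and 497 FPKM in Yoda1 mice. CST mice 2 and 3 lay above all Yoda1 mice, and CST mouse 1 between them. The means were 559 ± 196 FPKM in CST skin and 392 ± 92.9 FPKM in Yoda1 skin (SD, n = 3 each), with a log2 change of 0.47 (SE 0.32, 95% interval -0.27 to 1.22), the largest of the 9 on this scale. It ran from 0.22 without CST mouse 3 to 0.75 without CST mouse 1. Left out together, CST mouse 1 and Yoda1 mouse 3 took the change to 0.93 (SE 0.21, limma adjusted p = 0.322, unadjusted p = 0.00694). In that fit 12.5% of all genes had an unadjusted p under 0.05. The omission was chosen after the data were seen. For Krt79 it took out the lowest CST value and the highest Yoda1 value, which separates the groups, so its p carries no weight here. Weighting the libraries by limma gave a call (0.69, limma adjusted p = 0.0381), in a fit that called 9.24% of all tested genes. The largest weight in it was that of Yoda1 mouse 1 (12.8).

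Other genes of the upper follicle and duct did not pass the test. Of 7 tested genes, 4 had a log2 change above 0, with a median of 0.17. Krt17, a keratin of the outer root sheath and of wounded epidermis, measured 1464, 1729 and 1653 FPKM in CST skin and 1484, 1412 and 3021 FPKM in Yoda1 skin. Sprr1a, a cornified envelope gene induced in wounded epidermis, measured 2315, 1099 and 1313 FPKM in CST skin and 1084, 690.2 and 2079 FPKM in Yoda1 skin. Defb6, a defensin gene, measured 420.3, 357 and 650 FPKM in CST skin and 475, 374 and 665 FPKM in Yoda1 skin. The cystatin gene Cst6 measured 404, 554 and 510.2 FPKM in CST skin and 371, 238 and 568 FPKM in Yoda1 skin. The values of CST mouse 2 and CST mouse 3 were thus not above those of all Yoda1 mice in these 4 genes, as they were in Krt79.

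**Figure D3:**
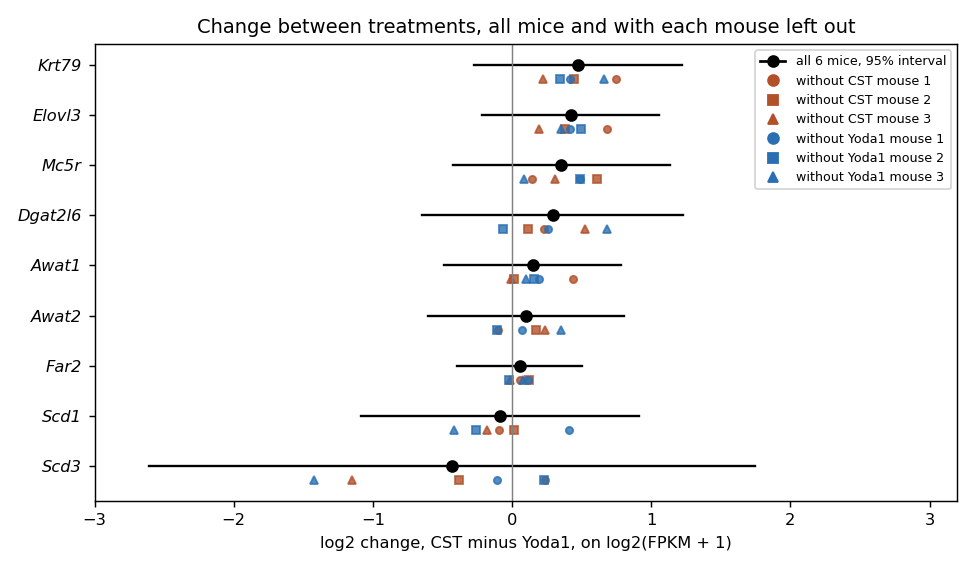
Log2 change, CST minus Yoda1, on log2(FPKM + 1) for the 9 tested genes, with the 95% limma interval (black) and the value with each mouse left out (coloured marks). All 9 intervals include 0, and that of Scd3 runs from -2.61 to 1.74 while that of Far2 runs from -0.39 to 0.50.

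The 10 genes did not share 1 ranking of the libraries. CST mouse 3 was highest for 4 of them (Awat1, Elovl3, Far2 and Krt79), Yoda1 mouse 1 for Scd1 and Mogat1, CST mouse 1 for Awat2 and Mc5r, Yoda1 mouse 2 for Scd3 and Yoda1 mouse 3 for Dgat2l6. Yoda1 mouse 2 was lowest for 4 (Awat2, Dgat2l6, Far2 and Krt79), and Yoda1 mouse 3 was lowest for 4 others (Scd1, Scd3, Elovl3 and Mc5r). The summed FPKM of the 10 was 2059, 2110.5 and 2778 in CST skin and 3675, 1830 and 1718 in Yoda1 skin, of which Scd1 made 56.0% to 82.0%. The sum thus mostly repeats Scd1.

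**Figure D4:**
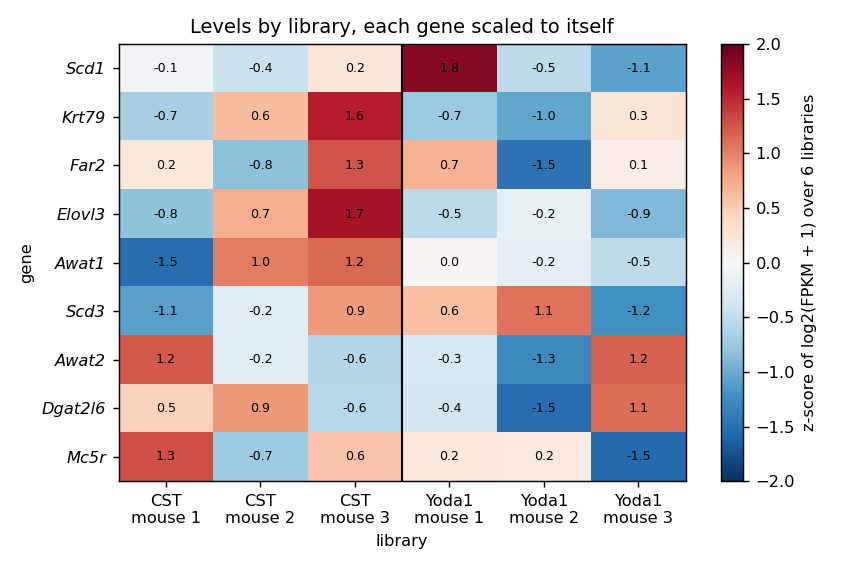
Level of the 9 tested genes in each library as a z-score of log2(FPKM + 1) over the 6 libraries, with CST mice left of the line. Awat1, Elovl3 and Krt79 are highest in CST mice 2 and 3, Scd1 in Yoda1 mouse 1, and Awat2 is high in CST mouse 1 and Yoda1 mouse 3, where Scd3 is low.

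Awat1, Elovl3 and Krt79 were each higher in CST mice 2 and 3 than in the other 4 libraries. The same 2 libraries held the most transcripts of the hair shaft and inner root sheath, which are made by growing hair. The summed FPKM of 14 such genes was 4.20, 196 and 651 in CST skin and 20.1, 30.3 and 3.79 in Yoda1 skin. All 10 of them that were tested were highest in CST mouse 3, and their median log2 change was 2.07, although none passed the adjusted threshold. Krt71, a root sheath keratin, measured 0.209, 56.1 and 167 FPKM in CST skin and 6.07, 5.35 and 0.0577 FPKM in Yoda1 skin, and several of these genes were listed at 0 in CST mouse 1 or Yoda1 mouse 3. Among the suprabasal keratinocyte genes, Sbsn and Lor were also higher in CST mice 2 and 3 than in the other libraries. The other genes of that list, among them Krt1 and Krt10, were not. Sbsn measured 438, 564 and 889 FPKM in CST skin and 355, 369 and 505 FPKM in Yoda1 skin. Lor measured 239, 561 and 1681 FPKM in CST skin and 452, 555 and 252 FPKM in Yoda1 skin. Genes outside these lists had this order of libraries too, among them the elongase gene Elovl1. It measured 223, 319 and 365 FPKM in CST skin and 237, 236 and 250 FPKM in Yoda1 skin. How many of all tested genes had this order was not counted. The part of growing hair follicles or of suprabasal keratinocytes in the values of Awat1, Elovl3 and Krt79 was not tested.

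**Figure D5:**
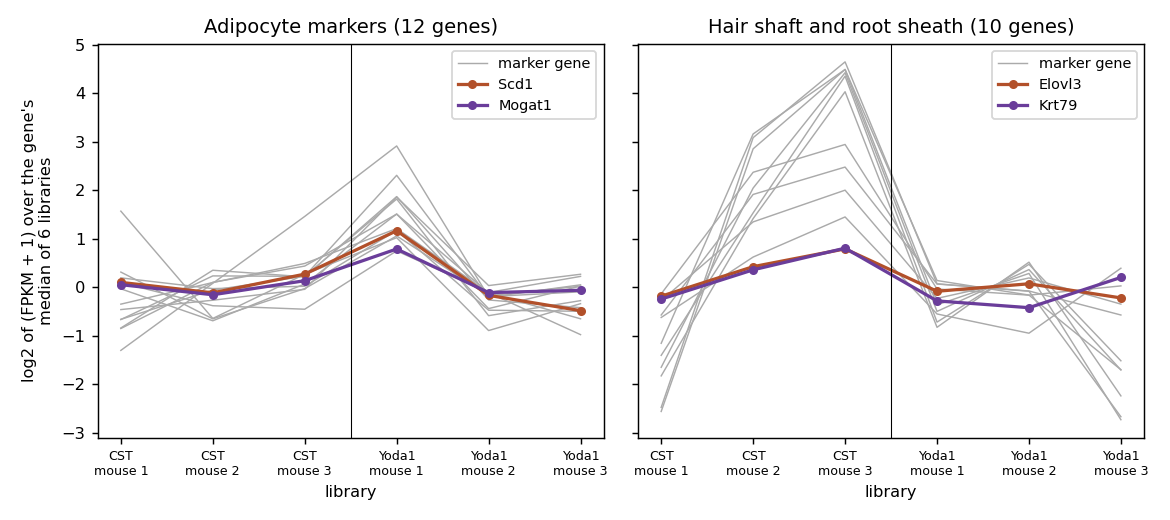
Log2 of FPKM + 1 over each gene's median of the 6 libraries, for 12 adipocyte genes with Scd1 and Mogat1 (left) and for 10 hair shaft and root sheath genes with Elovl3 and Krt79 (right), CST mice left of the line in each panel; lines only join the values of a gene. Scd1 and Mogat1 peak with 11 of the 12 adipocyte genes in Yoda1 mouse 1, and the hair genes are highest in CST mouse 3 together with Elovl3 and Krt79.

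Genes that feed fatty acids into these enzymes did not pass the test either. Of 18 such genes, all tested, 10 had a log2 change above 0 and 8 below, with a median of 0.07. Fasn, the fatty acid synthase, measured 48.2, 68.4 and 96.8 FPKM in CST skin and 115, 66.5 and 73.0 FPKM in Yoda1 skin. Acsl3, which activates fatty acids for lipid droplets, was the single gene of the list whose groups did not overlap, with 19.0, 17.8 and 14.1 FPKM in CST skin and 12.6, 12.6 and 10.9 FPKM in Yoda1 skin (log2 change 0.45, SE 0.21). That is 1 of 18, beside 6.59% of all tested genes whose groups did not overlap. Lpin1, a phosphatidate phosphatase, had a log2 change of 0.69 (SE 0.39), Acsbg1, an acyl-CoA synthetase, one of 0.24 (SE 0.20) and Gpam, the first acyltransferase of glycerolipid synthesis, one of 0.23 (SE 0.21). Thrsp, a lipogenic gene of fat and liver, measured 8.61, 5.23 and 11.4 FPKM in CST skin and 43.8, 7.34 and 4.33 FPKM in Yoda1 skin, so that it was again highest in Yoda1 mouse 1. Fasn and Thrsp were named after their values were seen.

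Regulators of sebocytes and of lipid synthesis gave a median log2 change of 0.06, with 11 of 17 tested genes above 0 and none past the threshold. Pparg, the nuclear receptor that drives sebocyte and adipocyte maturation, measured 14.4, 16.1 and 21.9 FPKM in CST skin and 33.7, 15.9 and 18.7 FPKM in Yoda1 skin. Sox9, a transcription factor of follicle stem cells, was the one regulator whose groups did not overlap, with 25.6, 27.0 and 21.001 FPKM in CST skin and 18.4, 16.7 and 19.8 FPKM in Yoda1 skin (log2 change 0.40, SE 0.20). This 1 of 17 tested genes stands beside 6.59% of all tested genes whose groups did not overlap. Mlxipl, a glucose-responsive activator of lipogenic genes, had a log2 change of 0.58 (SE 0.30). Prdm1, a repressor found in sebaceous and other epidermal cells, had a log2 change of 0.25 (SE 0.27).

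Of 20 further genes known from sebocytes, 18 were tested, 10 with a log2 change above 0 and 8 below, with a median of 0.02, and none passed. The most abundant were Fabp5, a fatty acid binding protein also abundant in wounded epidermis, Plin2, which coats lipid droplets, the glutathione transferase gene Mgst1, and Elovl6. Plin2 measured 629, 626 and 615 FPKM in CST skin and 945, 603 and 421 FPKM in Yoda1 skin. Mgst1 measured 487, 285 and 292 FPKM in CST skin and 385, 328 and 540 FPKM in Yoda1 skin. Their summed FPKM was 3464, 3082 and 3812 in CST skin and 3622, 2991 and 3497 in Yoda1 skin, which overlapped. Of these 20 genes Acaca, Acsbg1, Elovl5, Elovl6, Fasn, Soat1 and Pparg are also counted in the lists above.

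The tested genes outside the group whose levels ran most like the mean z-score of the 9 included Slc37a1, Hmgcs1, Star, Spns2, Edn1, Fmod and Dnase1l2. Their Pearson correlations with it over the 6 libraries lay between 0.956 and 0.971. They were picked as the highest among the tested genes, with predicted and clone names left out, so no p is given. Hmgcs1, an enzyme of cholesterol synthesis, measured 128, 130.1 and 167 FPKM in CST skin and 132, 114 and 125 FPKM in Yoda1 skin. Dnase1l2, a nuclease of cornifying cells, measured 23.8, 27.8 and 57.9 FPKM in CST skin and 22.4, 14.7 and 18.5 FPKM in Yoda1 skin. Since the 9 genes ranked the libraries differently, this mean describes no single one of them.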

How the data were processed

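The deposited table gives FPKM values made by the authors for 6 skin libraries, with symbols and Ensembl identifiers; which aligner and counter they ran, and whether by strand, was not given in the sources used here. GRCm38 and mm10 are named in the submitters' processing notes. As 2.81% of 52029 matched genes had the start of GRCm38, positions are those of GENCODE M21 on GRCm38. Depth came from the FPKM steps of genes spanning under 400 bases; with it all 30697 genes above 0 gave whole reads within 0.001 reads, against 7 of 1286 genes with wrong depths. Tests used limma 3.58.1 in R 4.3.3 on log2(FPKM + 1), two-sided, without covariates, for genes averaging 1 FPKM or more; this scale understates changes of low genes. The fits were tested on simulated data. Intervals are 95%. Members and lists were chosen with earlier results of these data known. Named genes were the members, their families, those with the smallest p (companion lists, up to 4) or highest mean FPKM (marker lists, up to 4), and the 8 of most like pattern, of which 1 is not reported here; exceptions are stated. Alternatives changed the pseudocount, filter, scaling, variance model, library weights, unit, block and libraries. Asip and Krt85 were not matched to a single row by those symbols and are in no list count.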

Additional observations from a re-analysis of the deposited data

How the results depend on the processing

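The median log2 change of the tested sebaceous genes kept its sign under all 17 alternatives, 16 of them planned, and ran from 0.05 to 0.26; with 1 mouse left out at a time it ran from 0.10 to 0.26. It was taken over the 9 genes, except over 10 without a filter, with Mogat1, and over 8 at a mean of at least 5 FPKM, without Mc5r. The number of all genes called was 0 in 14 alternatives. Leaving out 1 mouse at a time gave 0 to 136 calls, with 136 without Yoda1 mouse 2 and 8 without CST mouse 2, and 0 of the 9 sebaceous genes called each time. Library weights, whose estimation stopped before convergence, gave 1348 calls and 1 of the 9 genes (Krt79). They ran from 0.193 in Yoda1 mouse 3 to 12.8 in Yoda1 mouse 1, the library with the high adipocyte transcripts. Yoda1 mouse 2 had 0.657, and the CST mice had 0.305, 2.47 and 0.822. The Yoda1 side of this fit thus rested mostly on Yoda1 mouse 1. With these weights Far2 changed sign to -0.11 and Mc5r to -0.20, Scd1 stood at -1.09 (limma adjusted p = 0.0575) and Elovl3 at 0.53 (0.0504). Leaving out 1 mouse at a time moved Scd1 between -0.41 and 0.41, Scd3 between -1.42 and 0.24, Awat1 between -0.0078 and 0.44, Awat2 between -0.11 and 0.35, Dgat2l6 between -0.067 and 0.68 and Far2 between -0.025 and 0.12. Mc5r turned to -0.12 with CST mouse 1 and Yoda1 mouse 3 both left out, an alternative chosen after seeing the data. Why these values moved was not tested. Of 152 single-gene values under alternatives 138 kept direction and side of the threshold and 13 changed sign. The mouse number as a replicate block gave 0 calls and a median of 0.15; same-numbered mice deviated together with correlations of -0.08, 0.21 and -0.20, and nothing in the labels pairs them. Mogat1 rested on 3 to 28 reads.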
